A study of Homo sapiens with 6 samples.

Results

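Chemoattractant receptors were followed in Mon-Mac-6, an established cell line from a human acute leukaemia of monocytic type, after 48 h with 500 nM WD6305 or with its vehicle DMSO. They were chosen by name, CXCR4, CXCR2, CCR1, CCR2, CX3CR1, C5AR1, C3AR1, FPR1 and FPR2, and each of the 9 had its own row among the 31853 genes of the deposited table. WD6305 is described in the series title as a PROTAC against METTL3, that is, a molecule built to bring the m6A methyltransferase METTL3 to a ubiquitin ligase. Poly(A) RNA of 3 WD6305 libraries and 3 DMSO libraries was sequenced, and the line and the time were the same for both groups. The labels do not tell whether replicate libraries were grown as separate cultures. P-values therefore measure the spread between these libraries, which may be technical.

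Chemoattractant receptors are seven-helix receptors coupled mainly to inhibitory G proteins. Occupied receptors release G protein beta-gamma subunits, which switch on phosphoinositide 3-kinase gamma and phospholipase C beta and thereby steer the actin cytoskeleton, until receptor kinases and arrestins silence the receptor. In monocytes, CCR2 marks cells that enter tissue from blood, and CXCR4 retains cells in the bone marrow. CXCR2 is best known from neutrophils, and the complement and formyl peptide receptors guide phagocytes to sites of infection.

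Of the 9 receptors, 3 rose with WD6305 (CXCR4, CXCR2 and FPR2), 1 fell (CX3CR1) and 5 did not pass the test (CCR1, CCR2, C5AR1, C3AR1 and FPR1). The test was edgeR's quasi-likelihood test on the deposited counts, with Benjamini-Hochberg adjustment over 18138 genes and a threshold of 0.05. In that comparison 23.4% of all tested genes were called, 12.2% higher and 11.2% lower, so calls in both directions were common throughout the transcriptome. CXCR4, CXCR2 and CX3CR1 kept their direction and their call in each of the 15 alternative fits. The CPM values of the groups did not overlap for 5 of the 9, the called ones and FPR1, and for 40.8% of all tested genes. FPR2 is a low-count gene and lost its call in 9 of the 11 alternatives that gave it a value. All 9 passed the filter on low counts, but C5AR1, FPR1 and FPR2 were too low to test once the counts were divided by 4, for a reason given with their values. RNA of a bulk culture cannot tell fewer cells that express a gene from less RNA per cell.

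The library totals lay between 64525948 and 71155346 deposited counts. METTL3 RNA, the transcript of the targeted protein, was at 78.0 ± 1.88 CPM with WD6305 and 67.3 ± 2.86 CPM with DMSO (mean ± SD, n = 3 each). It was called higher with WD6305 (log2 fold change 0.21, SE 0.055, edgeR adjusted p = 0.0218), and no protein measurement is used here. CPM are counts over the TMM-scaled library total, on the usual CPM scale. The 9 monocyte markers were all detected, with LYZ the most abundant, and summed to 9530 to 10900 CPM in WD6305 libraries and 5510 to 6000 CPM in DMSO libraries, nearly all of it LYZ. Of these markers 6 rose with WD6305, with log2 fold changes of 1.41 for CSF1R, 1.17 for CD68, 1.13 for CD36, 0.87 for LYZ, 0.84 for ITGAM and 0.30 for CD33 (edgeR adjusted p = 2.39e-05 to 0.00786). CD14 fell by 0.37 on the log2 scale (adjusted p = 0.0123), and FCGR1A and MPEG1 did not pass at 0.06 and 0.31. Over all tested genes 12.2% were called higher and 11.2% lower. The part of these marker changes in the receptor results was not tested. Granulocyte markers were nearly absent: 3 of the 6 had a row in the table, MMP8 was at 0 in every library, and the list summed to at most 0.140 CPM with WD6305 and 0.267 CPM with DMSO. Of the 6 T and NK cell markers 2 had a row. NKG7 made up nearly all of their sum of 136 to 166 CPM with WD6305 and 149 to 180 CPM with DMSO, while NCAM1 had no count in any WD6305 library and at most 0.0582 CPM with DMSO. B cell markers, 2 of 3 with a row, summed to 1.2 to 1.54 CPM with WD6305 and 1.22 to 1.26 CPM with DMSO. Erythroid and megakaryocyte markers, 3 of 6 with a row, summed to 0.165 to 0.538 CPM with WD6305 and 0.408 to 0.742 CPM with DMSO. Keratin and collagen genes set WD6305 1 and DMSO 3 apart, and the 9 such markers summed to 48.7 to 105 CPM with WD6305 and 9.19 to 128 CPM with DMSO. KRT5 was at 63.4 and 67.15 CPM in WD6305 2 and 3 and at 0.0778 CPM in WD6305 1, against 79.3 and 66.5 CPM in DMSO 1 and 2 and 0.131 CPM in DMSO 3. COL1A1 was at 33.5 CPM in WD6305 1 and at 1.30 to 2.60 CPM in the other 5 libraries. The part of these keratin and collagen transcripts in the receptor results was not tested, and values without WD6305 1 and DMSO 3 are given beside the called receptors. The libraries that then remain are those with KRT5 at 66.5 to 79.3 CPM (DMSO) and 63.4 to 67.15 CPM (WD6305), so those values are not free of keratin transcripts.

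CXCR4, the receptor for CXCL12, was by far the most abundant of the 9 and rose 1.56-fold. The gene occupies chromosome 2, positions 136114349 to 136119177, minus strand (GRCh38, as in the deposited table). Its level was 346, 343 and 341 CPM in WD6305 1, 2 and 3, against 232, 224 and 206 CPM in DMSO 1, 2 and 3. The groups did not overlap, and the WD6305 libraries differed from each other by less than the DMSO libraries did. The log2 fold change was 0.64 (SE 0.05, 95% interval 0.52 to 0.75, edgeR adjusted p = 0.000108). In a two-sided exact permutation test of the log2 CPM values p was 0.1, and 3 against 3 libraries can give no smaller one. Without WD6305 1 and DMSO 3 the log2 fold change was 0.585 (edgeR adjusted p = 0.00047).

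**Figure D1:**
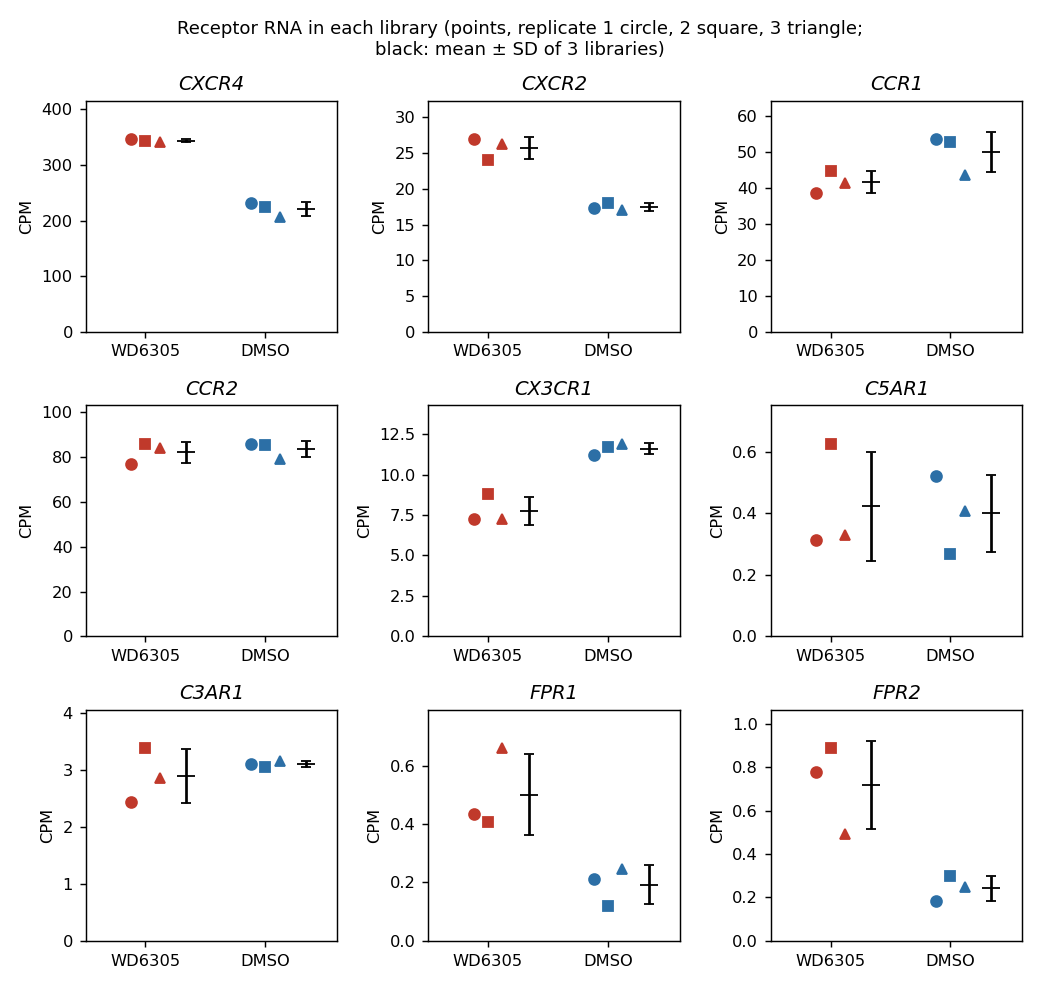
Level of each receptor in every library in CPM, with WD6305 libraries in red on the left and DMSO libraries in blue on the right of each panel and the mean ± SD of 3 libraries in black. CXCR4, CXCR2, FPR1 and FPR2 are higher in every WD6305 library than in any DMSO library, CX3CR1 is lower in every WD6305 library, and the groups overlap for the other 4 receptors.

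CXCR2, a receptor for CXCL8 and related neutrophil-attracting chemokines, rose 1.475-fold. It occupies positions 218125289 to 218135403 of chromosome 2, plus strand. It was measured at 26.9, 23.95 and 26.2 CPM in the WD6305 libraries 1, 2 and 3, against 17.3, 18.0 and 17.0 CPM in DMSO 1, 2 and 3. Again every WD6305 library was above every DMSO library. The log2 fold change was 0.56 (SE 0.08, 95% interval 0.39 to 0.73, edgeR adjusted p = 0.00117), and without WD6305 1 and DMSO 3 it was 0.51 (edgeR adjusted p = 0.0104). CXCR1, its neighbour and close paralog, was at 0.436, 0 and 0.105 CPM with WD6305 and 0.0985, 0.0598 and 0 CPM with DMSO, too low to test. None of the granulocyte markers had enough counts to be tested.

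CX3CR1, the receptor for fractalkine (CX3CL1), was the one receptor that fell. The gene occupies chromosome 3, positions 39263495 to 39281273, minus strand. Its level was 7.27, 8.78 and 7.26 CPM with WD6305, against 11.2, 11.7 and 11.9 CPM with DMSO. The groups did not overlap, with WD6305 2 nearest to the DMSO libraries. The level under DMSO was 1.49-fold that under WD6305, a log2 fold change of -0.58 (SE 0.11, 95% interval -0.82 to -0.33, edgeR adjusted p = 0.00543). Without WD6305 1 and DMSO 3 it was -0.51 (adjusted p = 0.0396).

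The stretches before the start sites of CXCR4, CXCR2 and CX3CR1, the receptors whose calls were kept throughout, are shown so that the letters behind the motif counts can be read. They come from RefSeq (GRCh38.p14) and end at the annotated start site or, where GENCODE release 29 extends the first exon, just before that exon. Capitals mark matches on either strand to the motif of NRF1 (the 10 letters in capitals from GCGCAT on in the CXCR4 stretch), the GC box GGGCGG, the TATA box letters TATAAA, the E-box CACGTG and the ETS family letters AGGAAGT. The CXCR4 stretch is chr2:136118166-136118399 on the minus strand, the CXCR2 stretch chr2:218125778-218126003 on the plus strand and the CX3CR1 stretch chr3:39281274-39281523 on the minus strand.
CXCR4: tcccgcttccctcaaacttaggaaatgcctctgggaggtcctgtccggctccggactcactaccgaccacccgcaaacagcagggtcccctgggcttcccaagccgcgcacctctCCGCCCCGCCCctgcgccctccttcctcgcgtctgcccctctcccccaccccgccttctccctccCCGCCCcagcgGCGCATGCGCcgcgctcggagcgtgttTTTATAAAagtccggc
CXCR2: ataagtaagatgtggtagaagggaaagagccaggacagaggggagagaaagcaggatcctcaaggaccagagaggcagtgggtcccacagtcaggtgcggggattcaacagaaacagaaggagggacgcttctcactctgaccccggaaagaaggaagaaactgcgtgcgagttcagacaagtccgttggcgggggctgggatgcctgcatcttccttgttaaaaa
CX3CR1: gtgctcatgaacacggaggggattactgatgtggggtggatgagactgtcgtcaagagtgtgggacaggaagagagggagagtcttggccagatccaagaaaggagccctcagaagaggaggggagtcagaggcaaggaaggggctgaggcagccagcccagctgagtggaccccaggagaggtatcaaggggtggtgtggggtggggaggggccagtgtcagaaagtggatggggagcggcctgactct

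Over the 250 bases before its start site, CXCR4 held 1 NRF1 match, 3 GC boxes and 2 overlapping TATA matches. The GC boxes begin 135, 130 and 70 bases before the start, and those at 135 and 130 share a base. The TATA matches begin 32 and 30 bases before the start. Of all 35116 windows of 250 bases in the RefSeq table, 1.03% held the NRF1 letters, 42.6% a GC box, 10.7% a TATA box, 6.34% an E-box and 7.01% the ETS letters. The CXCR2 window held 1 ETS match, 24 bases before the start and past the end of the printed stretch, and the CX3CR1 window held none of these motifs. Among the other receptors CCR1 had 2 ETS matches and FPR1 had 1, C3AR1 had 1 TATA match, and CCR2, C5AR1 and FPR2 had no match. In GENCODE release 29, all 250 bases of the CCR2 and FPR2 windows lie in exons of those genes. The same holds for 112 bases of the C3AR1 window and 83 of the CCR1 window. The start sites used for CXCR4 (136118149), CXCR2 (218126028) and CCR2 (46354111) lie inside the spans given here for these genes. So do those used for C5AR1 (47309861), FPR1 (51751878) and FPR2 (51761180). The printed CXCR4 and CXCR2 stretches thus lie within the spans of their genes, whereas the CX3CR1 stretch lies just before its span. G and C made up 68.0% of the CXCR4 window, 60.0% of the CX3CR1 window and 52.4% of the CXCR2 window, against a median of 58.0% over all windows. A match describes the letters in this window and no more.

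CCR2 and CCR1 lie 145551 bases apart in the chemokine receptor cluster of chromosome 3, and neither passed the test. CCR2, the receptor for CCL2 (plus strand, 46353864 to 46360940), was at 76.8, 85.7 and 84.0 CPM with WD6305 and 85.9, 85.2 and 79.3 CPM with DMSO. The ranges largely coincided. Its log2 fold change was -0.02 (SE 0.06) with a 95% interval of -0.16 to 0.11, that is 0.896-fold to 1.08-fold, so a change as large as that of CXCR4 lay outside the interval. CCR1, a receptor for CCL3, CCL5 and CCL23 (minus strand, 46201711 to 46208313), was at 38.7, 44.7 and 41.6 CPM with WD6305, against 53.6, 52.9 and 43.7 CPM with DMSO. DMSO 3 fell inside the WD6305 range, while DMSO 1 and 2 were above it. The log2 fold change was -0.26 (SE 0.09, 95% interval -0.48 to -0.05), with adjusted p = 0.0774 in edgeR. Tools differed on this receptor: DESeq2 gave adjusted p = 0.0185, and limma on log2(FPKM + 1) gave 0.0424 with a filter on low values and 0.118 without one. EdgeR gave adjusted p = 0.0111 without DMSO 3 and 0.0185 without DMSO 3 and WD6305 1. The difference between the changes of CCR1 and CX3CR1 was not tested.

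**Figure D2:**
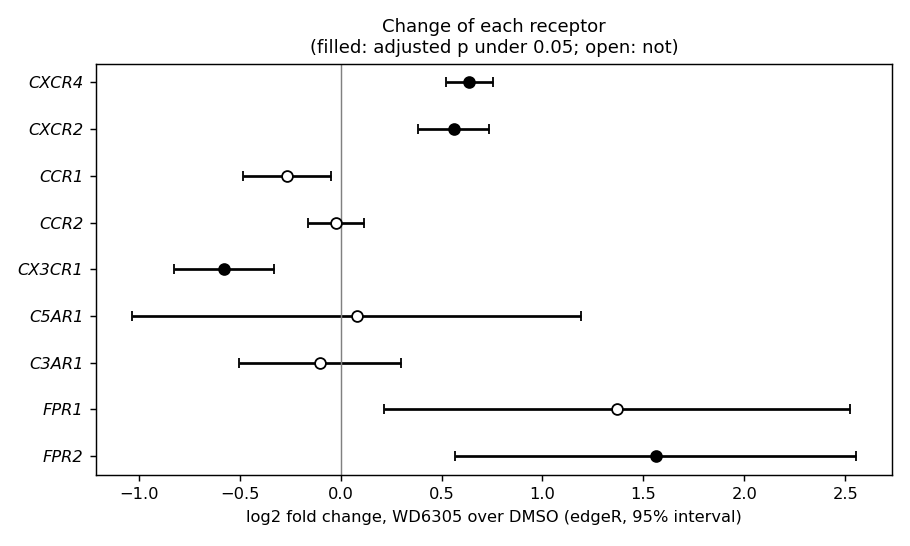
Log2 fold change of each receptor, WD6305 over DMSO, from edgeR with its 95% interval, filled where the adjusted p is under 0.05. CXCR4, CXCR2 and FPR2 lie to the right of 0 and CX3CR1 to the left, CCR2 has a narrow interval around 0, and the intervals of C5AR1, FPR1 and FPR2 are the widest.

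The complement receptors did not pass. C3AR1, the receptor for the C3a fragment of complement (chromosome 12, minus strand, 8056844 to 8066359), was at 2.43, 3.37 and 2.86 CPM with WD6305 and 3.10, 3.05 and 3.16 CPM with DMSO. The WD6305 libraries lay on both sides of the DMSO libraries, with a log2 fold change of -0.10 (SE 0.18, 95% interval -0.50 to 0.30, edgeR adjusted p = 0.737). C5AR1, the receptor for C5a (chromosome 19, plus strand, 47290023 to 47320186), had deposited counts of 20, 43 and 22 with WD6305 and 37, 18 and 28 with DMSO. Those ranges overlapped almost fully. Its interval, 0.489-fold to 2.29-fold, was too wide to show or to leave out a change of the size seen in CXCR4.

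FPR1 and FPR2, receptors for formylated bacterial peptides and, for FPR2, also lipid and host peptide ligands, had the largest fitted fold changes of the 9, on counts of 61 or fewer in every library. FPR2 had deposited counts of 50, 61 and 33 with WD6305, against 13, 20 and 17 with DMSO. It averaged 0.720 ± 0.203 CPM with WD6305 and 0.243 ± 0.0580 CPM with DMSO, 2.96-fold higher (log2 fold change 1.56, SE 0.44, 95% interval 0.57 to 2.55, edgeR adjusted p = 0.0319). FPR1 had counts of 28, 28 and 44 with WD6305, against 15, 8 and 17 with DMSO. Its log2 fold change of 1.37 (SE 0.51, 95% interval 0.21 to 2.52) had adjusted p = 0.0863 in edgeR. Every WD6305 library was above every DMSO library for both genes.

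Low counts in the table pile up at multiples of 4, with 1071 to 1176 genes at a count of 4 in a library, against 553 to 636 at 3 and 357 to 380 at 5. If 1 read pair is worth 4 counts, FPR2 rested on 8.25 to 15.2 read pairs per WD6305 library and 3.25 to 5.00 per DMSO library, FPR1 on 7.00 to 11.0 and 2.00 to 4.25, and C5AR1 on 5.00 to 10.8 and 4.50 to 9.25. With counts divided by 4, these 3 receptors did not pass the filter and are too low to test, whereas C3AR1 and the 5 chemokine receptors remained testable. With the replicate number as a block FPR2 had adjusted p = 0.0755, and leaving out any 1 library but WD6305 3 gave 0.0554 to 0.118 (edgeR). Without WD6305 1 and DMSO 3 together it had 0.119.

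In the deposited table FPR1 (minus strand, chromosome 19, 51745172 to 51804115) and FPR2 (plus strand, 51752026 to 51770531) overlap. The library preparation marks the strand, but no source used here states whether counting took it into account, so reads of the overlapping stretch cannot be assigned with certainty, and the paralogs may also share reads. CCR1 likewise lies within the span of CCR3 on the opposite strand, but CCR3 had at most 19 counts in a library. Within 200 kb of the FPR pair, 5 other genes were tested and 3 of them rose. SIGLEC14 and SIGLEC5, closely similar lectins of myeloid cells, had log2 fold changes of 1.11 and 1.14, and ZNF175 of 0.34 (edgeR adjusted p = 0.000427, 0.000585 and 0.0175). Of the tested neighbours of CXCR4, of CCR1 and of CCR2, 0 of 3 each were called. The calls were 1 of 7 for CXCR2 (AAMP, lower), 1 of 6 for CX3CR1 (GORASP1, higher), 3 of 13 for C5AR1 (all lower) and 1 of 8 for C3AR1 (SLC2A3, lower). Over all tested genes 23.4% were called, 12.2% of them higher and 11.2% lower as shares of all tested. Whether neighbouring genes changed together was not tested. These neighbours were looked up after the values of the receptors were seen.

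Levels between receptors can be compared per transcript length, as the authors' FPKM. With WD6305 the order was CXCR4 (109 to 112 FPKM), CCR2 (18.5 to 20.8), CCR1 (13.7 to 15.9), CXCR2 (7.01 to 7.82), CX3CR1 (1.85 to 2.25) and C3AR1 (0.650 to 0.910). The order of these 6 was the same with DMSO, at 68.8 to 75.2, 19.8 to 20.9, 15.95 to 19.0, 5.04 to 5.31, 2.88 to 3.14 and 0.830 to 0.870 FPKM. No neighbours among these 6 overlapped in range in either group. FPR2, FPR1 and C5AR1 stood last, between 0.1 and 0.230 FPKM with WD6305 and between 0.0400 and 0.160 FPKM with DMSO, and their ranges overlapped. CXCR4 made up 70.1% to 72.2% of the summed FPKM of the 9 receptors with WD6305 and 59.8% to 60.6% with DMSO. That sum was 155 to 159 FPKM with WD6305 and 114 to 124 FPKM with DMSO.

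**Figure D3:**
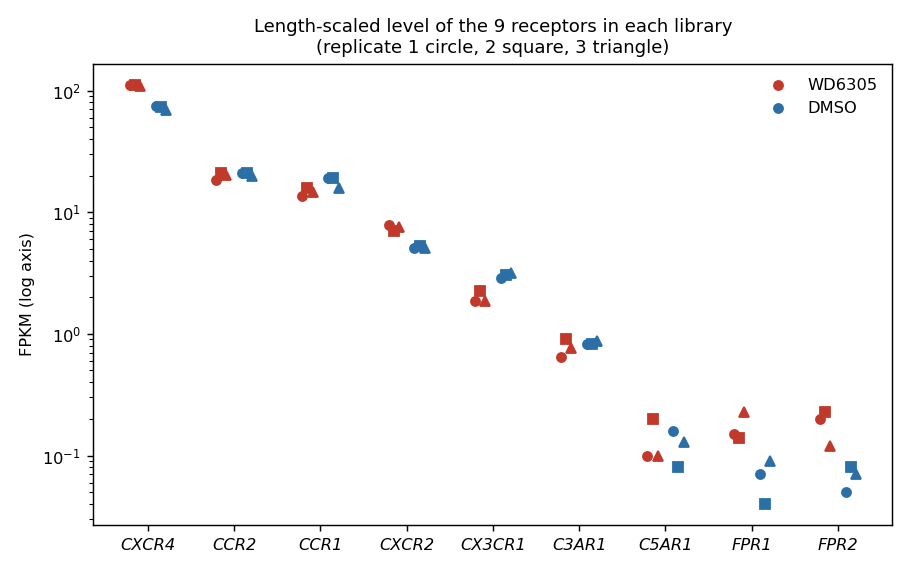
FPKM of each receptor in every library on a log axis, ordered by the mean with DMSO, WD6305 libraries in red to the left of DMSO libraries in blue. The first 6 receptors keep their order in both groups, and C5AR1, FPR1 and FPR2 lie together at 0.230 FPKM or less.

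METTL3 methylates adenosines in a short sequence context of which GGACT is one form. Methylation was not measured, so only the letters were counted, in the longest protein-coding transcript of each gene in GENCODE release 29. GGACT occurred 2 times in CXCR4 (1.06 per kb), 4 times in CXCR2 (1.39), 6 times in CX3CR1 (1.84), 6 times in CCR1 (2.20) and 4 times in CCR2 (1.5). C5AR1, C3AR1, FPR1 and FPR2 held 1.73, 1.44, 1.53 and 1.91 per kb. All 9 were above the median of 0.935 per kb over 13402 tested protein-coding genes. Of the 9, CXCR4 had the lowest density and CCR1 the highest, and a relation between density and change was not tested.

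Around the receptors, 7 lists of related genes held 87 entries, 77 of them with a row in the table and 59 tested. In these lists 10 genes rose and 6 fell, against 2218 higher (12.2%) and 2031 lower (11.2%) of 18138 overall. Typical chemokine receptors outside the 9 were mostly not expressed: 7 of the 11 in the table were too low to test, XCR1 had no count in any library, and CCR3, CCR10 and CXCR6 did not pass. CCR7, which guides leukocytes to lymph nodes, was called lower, on counts of 4, 0 and 8 with WD6305, against 51, 39 and 75 with DMSO (edgeR adjusted p = 0.0122). With WD6305 it was at 0.0623, 0 and 0.120 CPM, under the 0.148 CPM of the filter in every library. CCR7 was thus tested only through its DMSO libraries, and a call in the other direction was hardly possible. Its call was lost at adjusted p = 0.0679 without WD6305 1 and DMSO 3. Of the atypical receptors only CCRL2 could be tested (log2 fold change -0.27, adjusted p = 0.641).

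Other leukocyte attractant receptors, most of them for lipids, held 3 rises among 6 tested genes and no fall. Over all tested genes 12.2% were called higher and 11.2% lower. The median log2 fold change of the 6 was 0.29, against 0.00 over all tested genes, and the list as a whole was not tested. PTAFR, the receptor for platelet-activating factor, rose 1.84-fold to 25.8 ± 2.13 CPM with WD6305, against 14.0 ± 0.482 CPM with DMSO (log2 fold change 0.88, SE 0.08, edgeR adjusted p = 0.00022). LTB4R, the high-affinity receptor for leukotriene B4, was at 74.3 ± 2.06 CPM with WD6305 and 58.4 ± 0.755 CPM with DMSO (log2 fold change 0.35, edgeR adjusted p = 0.00181). Its reads may be shared with the adjoining LTB4R2, which did not pass at 0.20. GPR183, a receptor for oxysterols, rose by 0.26 on the log2 scale. C5AR2, the second receptor for C5a, and OXER1 did not pass.

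Ligands of the 9 receptors held 2 rises and no fall among 14 tested, with a median log2 fold change of -0.23. CCL23, a ligand of CCR1, rose to 12.3 ± 0.834 CPM with WD6305, against 8.20 ± 0.492 CPM with DMSO (log2 fold change 0.59, edgeR adjusted p = 0.00332). C5, the precursor of C5a, had a log2 fold change of 0.53 with edgeR adjusted p = 0.0338, and lost its call when any 1 library but DMSO 1 was left out (0.0595 to 0.126). The CCR2 ligand CCL2, the CXCR2 ligand CXCL8 and MIF, which binds CXCR4 and CXCR2, did not pass, at log2 fold changes of -0.19, -0.26 and -0.18. CXCL12, the ligand of CXCR4, had 149 counts in WD6305 1 and 0 in each of the other 5 libraries and was too low to test. WD6305 1 was also the library with collagen transcripts, COL1A2 having 460 counts there and 0 in the others. The part of those transcripts in the CXCL12 counts was not tested.

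**Figure D4:**
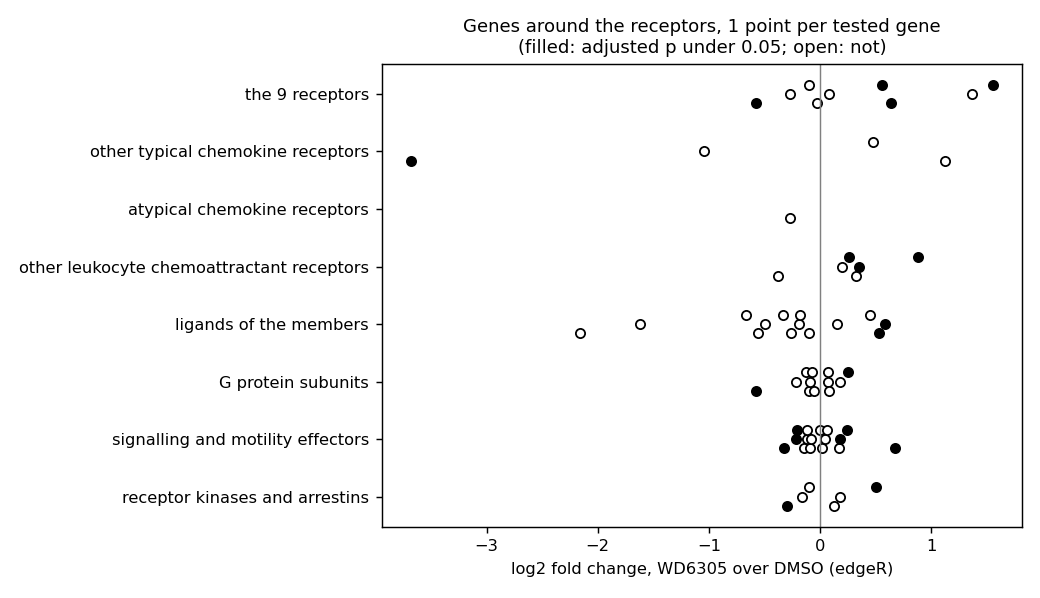
Log2 fold change, WD6305 over DMSO, of each tested gene of the 9 receptors and of the 7 related lists, filled where the edgeR adjusted p is under 0.05. Rises and falls both occur in the lists of G proteins, effectors and receptor kinases. CCR7, which passed the filter on low counts only through its DMSO libraries, lies farthest to the left at -3.68.

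Downstream of the receptors, calls went both ways. Of 12 tested G protein subunits GNG5 rose (log2 fold change 0.25) and GNG11 fell (-0.57), at edgeR adjusted p = 0.0300 and 0.0169, while GNAI2, an inhibitory alpha subunit of leukocytes, did not pass at 0.07. Of 16 tested effectors 3 rose and 3 fell. PIK3R5, a regulatory subunit of phosphoinositide 3-kinase gamma, rose 1.595-fold to 41.85 ± 2.76 CPM with WD6305, against 26.2 ± 0.209 CPM with DMSO (log2 fold change 0.67, SE 0.07, edgeR adjusted p = 0.000359), whereas the catalytic subunit PIK3CG did not pass at 0.06. PLCB2, a phospholipase C of blood cells, and the GTPase RAC2 rose by 0.24 and 0.18 on the log2 scale. PREX1, an exchange factor for Rac that answers to beta-gamma subunits, fell by 0.33, VAV1, another exchange factor, by 0.22 and PLCB3 by 0.21.

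Among the 6 receptor kinases and arrestins, GRK3 rose and ARRB2 fell. GRK3, a kinase that phosphorylates occupied receptors, was at 48.3 ± 0.542 CPM with WD6305 and 34.02 ± 1.40 CPM with DMSO (log2 fold change 0.51, SE 0.06, edgeR adjusted p = 0.000787). ARRB2, an arrestin that uncouples and internalises receptors, had a log2 fold change of -0.29 (adjusted p = 0.0166). GRK2 and GRK6 did not pass at 0.13 and -0.16. GNG5 and RAC2 each lost their call without any 1 of the WD6305 libraries or without DMSO 2 (edgeR adjusted p = 0.0764 to 0.0989 and 0.0593 to 0.0757), and PLCB3 without any 1 library (0.0532 to 0.180). GNG11 lost it without DMSO 1 (0.0611), PLCB2 without WD6305 3 (0.0513), and ARRB2 without WD6305 3 or DMSO 2 (0.0555 to 0.0771).

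By profile over the 6 libraries, the related gene nearest to CXCR4 was CCL23, at a mean absolute difference of 0.06 between centred log2 CPM, out of 59 genes compared. For CXCR2 it was GRK3 (0.05), for CX3CR1 it was CXCL2 (0.12) and for FPR2 it was PTAFR (0.36). CXCL2 itself did not pass the test, at a log2 fold change of -0.49. It is a low-count gene, with deposited counts of 18, 29 and 22 with WD6305 and 34, 36 and 30 with DMSO.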

How the data were processed

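Poly(A) RNA of 6 Mon-Mac-6 libraries was sequenced in pairs from dUTP-marked cDNA, per the labels' protocols. HISAT2, StringTie, fastp, edgeR and the build GRCh38 are named in the submitters' processing notes, and no source used here gives their versions. Per the file headers, the deposited table holds estimated counts and FPKM of each gene by library, with 0 further sample columns. The deposited counts are whole, so rounding left them unchanged. The authors' FPKM values have 2 decimals.

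Here, genes passing filterByExpr (a minimum count of 10, about 0.148 CPM in 3 libraries) were scaled with TMM factors of 0.987 to 1.02 and tested with the quasi-likelihood test of edgeR 4.0.16 under R 4.3.3, two-sided, with no replicate block. Standard errors and 95% intervals were derived from the F value. DESeq2 1.42.0, limma 3.58.1 on log2(FPKM + 1) or log2(FPKM + 0.1), other filters, counts divided by 4, a replicate block and left-out libraries were alternatives. Log2 CPM used a prior count of 2. Pairs of libraries within a group differed by a chi-square per degree of freedom of 3.77 to 10.4 on counts divided by 4, so none was taken as a duplicate. The fit was tested on simulated data. The receptors and gene lists were chosen with earlier results of these data known. Named genes were the receptors, METTL3 and up to 4 called genes per list; other named genes were chosen after their values were seen.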

Additional observations from a re-analysis of the deposited data

How the results depend on the processing

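CXCR4, CXCR2 and CX3CR1 kept direction and call in all 15 alternatives, with log2 fold changes of 0.59 to 0.67, 0.53 to 0.61 and -0.68 to -0.53 when 1 library was left out. CCR1 also kept its sign, at -0.35 to -0.21 with 1 library left out. It passed with library sizes alone (-0.29), DESeq2 (-0.27), limma on log2(FPKM + 1) (-0.27) or log2(FPKM + 0.1) (-0.28), without DMSO 3 and without DMSO 3 and WD6305 1 together (-0.30); the cause was not tested. FPR2 missed the threshold with no filter on low counts (1.56), limma on unfiltered log2(FPKM + 1) (0.15), the replicate block (1.54) and without DMSO 3 and WD6305 1 (1.515), and ranged from 1.38 to 1.77 with 1 library left out. FPR1 ranged from 1.119 to 1.585 there. Changes of sign were seen in receptors that were not called. CCR2 ranged from -0.058 to 0.025 and C5AR1 from -0.32 to 0.32 with 1 library left out. C3AR1 ranged from -0.231 to 0.008, and was 0.021 without DMSO 3 and WD6305 1. C5AR1, FPR1 and FPR2 had no value in DESeq2, in limma on filtered FPKM and with counts divided by 4, where 3 receptors instead of 0 were too low to test, by construction of the smaller counts. With 1 library left out, 3 to 4 receptors were called. Of the related genes, 6 to 10 rose and 4 to 8 fell with 1 library left out, the 6 without WD6305 3. DESeq2 called 10 lower instead of 6. Over all genes 4249 were called, and 2756 without WD6305 3.

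The labels do not say that a replicate number marks a shared culture or day, so the number was not taken as a pairing. Correlations of the deviations from the group means between libraries of the same number were -0.18, 0.08 and -0.15 for 1, 2 and 3. Deviations from a mean of 3 libraries constrain each other, so these correlations cannot settle whether the libraries were paired. The largest such correlation between a WD6305 and a DMSO library, 0.265, was that of WD6305 1 and DMSO 3. With the replicate block 3204 genes were called, and FPR2 (1.54) was the one receptor whose call changed. Depth limits C5AR1, FPR1 and FPR2.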
